A study of Mus musculus with 16 samples.

Results

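The genes described here make up the protein folding machinery of the endoplasmic reticulum (ER) and the stress responses that watch over it, compared between *APOE4* and *APOE3* brain endothelial cells. They were 36 genes picked by function and by name. The rule held no measured value, but earlier results of these data were known when the list was chosen. Out of 39057 genes counted, all 36 were among the 12481 genes tested. They fall into 5 branches, namely 11 chaperones, 6 genes of disulfide formation, 6 of ER-associated degradation, 4 for the stress sensors with Xbp1, and 9 targets or effectors of the integrated stress response. With *APOE4*, 6 of them were higher and 4 were lower at an adjusted p under 0.05, beside 6.71% and 6.09% of all genes tested (12.8% in either direction). The higher ones were chaperones and disulfide enzymes (Hsp90b1, Sdf2l1, P4hb, Pdia3, Pdia4 and Pdia6), and the lower ones were Herpud1, a degradation gene, and the integrated stress response genes Atf4, Trib3 and Ppp1r15a. Each of these differences was small, between -0.23 and 0.32 on the log2 scale, and 0 of the 36 genes separated the genotypes without overlap, as 0.625% of all genes did. Once a score of cell cycle genes was added to the model, 0 members and 0 genes in all passed. That score itself differed between the genotypes, so this fit cannot tell the effects of score and genotype apart.

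The study isolated endothelial cells from the cerebral cortex of targeted replacement mice, in which a human *APOE* isoform is expressed from the mouse promoter, to learn what *APOE* genotype does to these cells in culture. There were 8 *APOE3* and 8 *APOE4* cultures, 4 from males and 4 from females in each genotype, every one from 1 brain of a mouse aged 21 to 28 days. All cultures had passed through 8 µg/ml puromycin, which kills cells that cannot pump it out, and were otherwise untreated when polyadenylated RNA was sequenced. Both groups carry a human gene in place of the mouse one, so neither is a wild-type control, and only 1 replacement line per isoform was used.

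Proteins that enter the secretory pathway fold in the ER with the help of chaperones, chiefly the HSP70 family member BiP and its HSP90 partner GRP94, while protein disulfide isomerases form and shuffle their disulfide bonds. When unfolded proteins accumulate, the sensors IRE1, ATF6 and PERK set off the unfolded protein response, in which spliced XBP1 and cleaved ATF6 turn on chaperone and degradation genes. PERK instead phosphorylates the translation factor eIF2, as other kinases do in response to amino acid shortage, viral RNA or heme loss, and this shared arm, the integrated stress response, acts through the transcription factor ATF4.

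ATF6, XBP1 and ATF4 are known to act through short promoter elements, which are shown so that the genes that passed the test can be set beside those that did not. Members were picked by function and several are textbook carriers of these elements, so how often they carry them is not an independent finding. The ER stress element (ERSE) was searched as CCAAT and CCACG with 9 bases between them, on both strands, in the RefSeq promoter windows of GRCm38.p6 that run from 250 bases before to 50 bases after each start. A window was at hand for 30 of the 36 members, and those missing were Hyou1, Manf, Ero1l, Ero1lb, Derl1 and Atf6. These 30 members had 32 windows. In 27 of the windows the 25 bases after the start lay in a GENCODE transcript of the gene, and in the rest they did not. The element was found in 8 of the 30, whereas 0.137% of the 27018 genes with a window held it. In the stretches that follow, written in the direction of the gene, capitals mark the whole element, which in Calr and in the second Hsp90b1 site reads as its reverse complement.
Hspa5 (chr2:34772010-34772058, plus strand): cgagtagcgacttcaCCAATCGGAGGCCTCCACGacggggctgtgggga
Hsp90b1 (chr10:86705623-86705671, minus strand): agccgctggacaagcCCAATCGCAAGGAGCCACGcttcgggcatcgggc
Hsp90b1 (chr10:86705518-86705566, minus strand): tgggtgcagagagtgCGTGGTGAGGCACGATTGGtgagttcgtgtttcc
Calr (chr8:84847060-84847108, minus strand): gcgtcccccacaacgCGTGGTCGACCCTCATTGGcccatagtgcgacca
Canx (chr11:50325785-50325833, minus strand): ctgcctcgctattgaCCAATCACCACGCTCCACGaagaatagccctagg
Pdia6 (chr12:17266476-17266524, plus strand): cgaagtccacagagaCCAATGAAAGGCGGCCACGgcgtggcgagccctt
Syvn1 (chr19:6046517-6046565, plus strand): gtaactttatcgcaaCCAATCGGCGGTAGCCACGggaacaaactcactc

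The Hspa5 element began 65 bases before the start and the Pdia6 element 98 bases before it. Hsp90b1 was the only member with a pair of them, beginning 212 and 107 bases before its start. The remaining carriers were Dnajc3 and Creld2, so 6 of the 9 chaperones with a window held the element, beside 1 of 4 disulfide genes, 1 of 5 degradation genes and 0 of 9 integrated stress response genes. The element was thus present in genes that were higher with *APOE4* (Hsp90b1 and Pdia6) and in genes that did not pass the test (the other six).

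The variant ERSE-II was searched as ATTGG and CCACG with 1 base between them, and the ATF4-binding element CARE as TGATGNAA, also on both strands. ERSE-II occurred in Herpud1 and Dnajb11 and in 0.0444% of all genes with a window, and CARE in Herpud1, Trib3, Chac1 and Asns and in 4.51% of all. The unfolded protein response element TGACGTGG was in 0 of the 30 members and in 0.714% of genes. The promoter of Herpud1 held both ERSE-II and CARE, and its stretches are shown with the CARE of Chac1 and Asns, the capitals again marking the element.
Herpud1, ERSE-II (chr8:94386362-94386402, plus strand): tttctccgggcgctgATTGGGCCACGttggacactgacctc
Herpud1, CARE (chr8:94386302-94386339, plus strand): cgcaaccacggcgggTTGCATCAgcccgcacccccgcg
Chac1, CARE (chr2:119351034-119351071, plus strand): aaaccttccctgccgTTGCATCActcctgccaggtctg
Asns, CARE (chr6:7693210-7693247, minus strand): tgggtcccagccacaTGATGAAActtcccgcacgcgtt

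A match of letters is a description of the sequence and does not show that a factor binds there. The CARE of Trib3 began 15 bases after its start.

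Library totals were 12717847 to 18624417 counts. The gene counts cannot tell the isoforms of *APOE* apart. Human APOE was at 1003 to 1425 CPM (counts scaled to library size) in *APOE3* and 609 to 1013 CPM in *APOE4* libraries. Mouse Apoe had 128 to 290 counts in each of the 16 libraries. The 23 brain endothelial markers summed to 26671 to 28536 CPM in *APOE3* and 26817 to 29367 CPM in *APOE4* libraries, whereas 13 microglia and macrophage markers summed to at most 10.6 CPM, with C1qa, C1qc, Itgam, P2ry12 and Trem2 at 0 counts in every library. Pericyte and smooth muscle markers summed to 193 to 362 CPM with *APOE3* and 227 to 345 CPM with *APOE4*, fibroblast markers to 25.8 to 79.6 and 28.4 to 109 CPM, astrocyte markers to 32.1 to 41.7 and 33.8 to 43.6 CPM, oligodendrocyte lineage markers to 24.6 to 33.0 and 32.0 to 38.7 CPM, with Mobp, Olig1 and Olig2 at 0, and neuron markers to at least 11.3 and at most 19.4 CPM in any library. Among all these markers 3 passed the test as higher with *APOE4*, namely endothelial Emcn, Fbln1 of the fibroblast list and Cnp of the oligodendrocyte list, and 1 as lower, endothelial Egfl7, all named after their values were seen. A few genes, named after their values were seen, made up most of the pericyte and astrocyte sums. Mean CPM with *APOE3* and *APOE4* was 161 and 178 for Tagln and 83.8 and 80.3 for Acta2. For Pdgfrb it was 4.74 and 6.10. In the astrocyte list it was 33.5 and 36.6 for Gja1 and 1.64 and 2.56 for Aldh1l1. The part of other cell types in the results was not tested. In bulk RNA, fewer cells of a type and less RNA per cell cannot be told apart. Cell cycle genes moved with genotype, since 37 of 40 were higher with *APOE4*, and their mean log2 CPM was 5.54 ± 0.348 (SD, n = 8) with *APOE3* and 6.12 ± 0.270 (SD, n = 8) with *APOE4* (two-sided exact permutation test, p = 0.00202). This score is of RNA. In its own assays at confluence the study found no genotype difference in cell density or in nuclei labelled with bromodeoxyuridine, its measure of proliferation.

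Per transcript length the 36 genes covered a wide range of levels. Averaged over the 16 libraries, the highest were P4hb at 213 RPKM (reads per kilobase of exon, scaled to library size as CPM are), Calr at 199, Pdia3 at 121, Hsp90b1 at 110 and Hspa5 at 97.4 RPKM. Among the stress regulators, Atf4 stood at 89.2 and Xbp1 at 84.5 RPKM. The lowest were Ero1lb at 1.31 and Chac1 at 3.41 RPKM, and the smallest count of any member in any library was 55, for Chac1. Every member was therefore well above the 3 counts treated as the floor.

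Of the 36 members 27.8% passed the threshold in either direction, beside 12.8% of all genes (edgeR's quasi-likelihood F test, Benjamini-Hochberg adjusted p under 0.05). At an unadjusted p under 0.05 there were 20 members, beside 29% of all genes, and the median log2 fold change of the members was 0.02, beside -0.0002 for all genes. By branch, 18.2% of chaperones, 66.7% of disulfide genes and 16.7% of degradation genes passed in either direction. For the sensors with Xbp1 it was 0%, and for the integrated stress response genes 33.3%. These counts describe a list chosen with earlier results of these data known, and no test of the list was made.

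**Figure D1:**
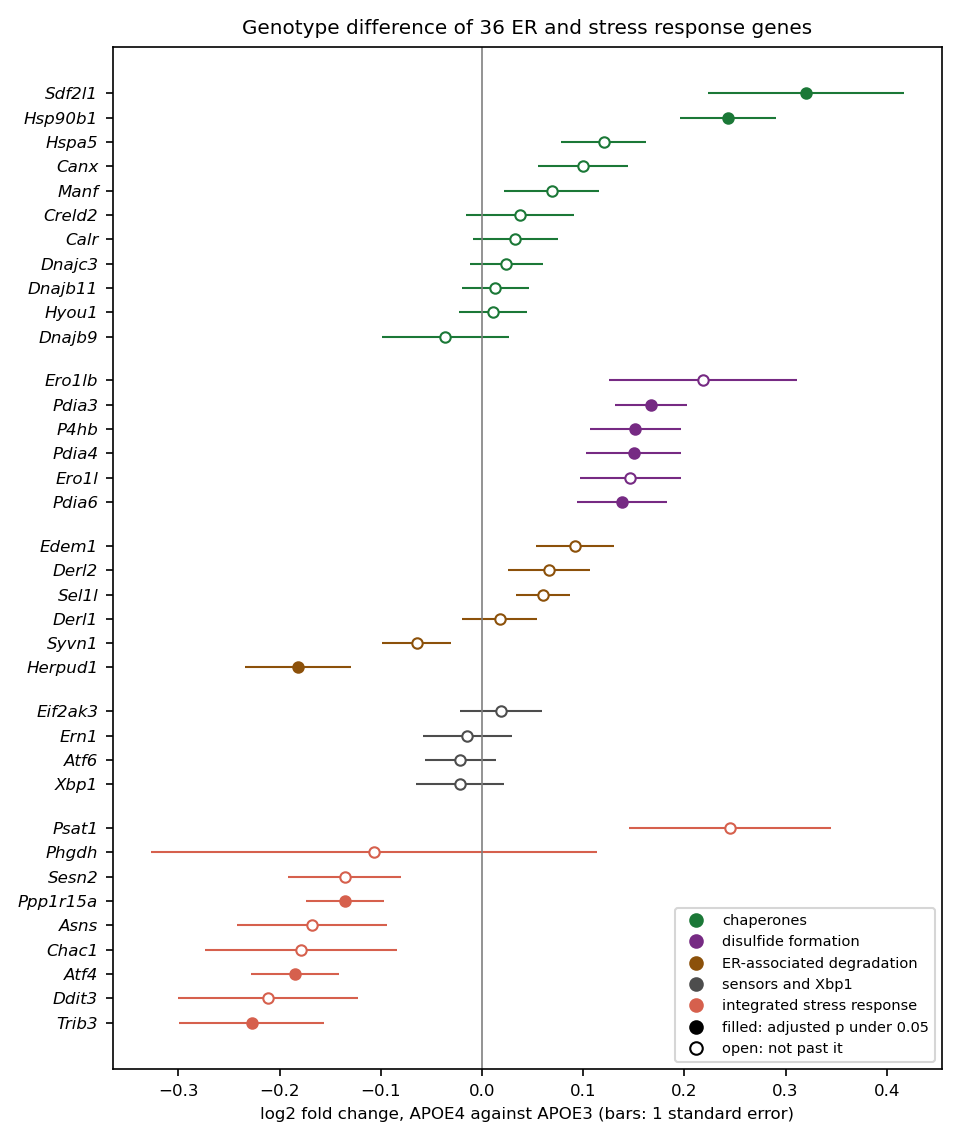
Log2 fold change of each of the 36 genes in *APOE4* against *APOE3* cultures (horizontal axis, 8 libraries each), grouped by branch, with bars of 1 standard error and filled points for genes past the threshold. All 6 disulfide genes lie between 0.14 and 0.22, the 4 genes of the sensors and Xbp1 lie between -0.02 and 0.02, and 8 of the 9 integrated stress response genes lie below 0.

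Among the 11 chaperones, 2 were higher with *APOE4*, 0 were lower and the median log2 fold change was 0.04. Hsp90b1 (ENSMUSG00000020048.13, chromosome 10, 86690209 to 86705509), which encodes GRP94, the HSP90 of the ER lumen, ranged from 366 through a median of 401 to 441 CPM with *APOE3* and from 432 through 480 to 535 CPM with *APOE4*. Only the lowest *APOE4* library, replicate 36, lay inside the *APOE3* range. Its log2 fold change was 0.24 ± 0.0474 (SE) with an adjusted p of 0.00643, an increase of 18.3%, and it passed the threshold in all 16 fits that each left out 1 library.

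Sdf2l1 (ENSMUSG00000022769.7, chromosome 16, 17130138 to 17132383) encodes a luminal protein that works with the J-domain cochaperone ERdj3 to keep clients from aggregating. It was at 9.32, 12.4 and 14.3 CPM (lowest, median and highest) with *APOE3* and at 12.0, 15.1 and 17.9 CPM with *APOE4*. The 2 lowest values were those of the *APOE3* female replicates 30 and 33, and 5 *APOE4* libraries were above every *APOE3* library. Its log2 fold change of 0.32 ± 0.0969 (SE), adjusted p = 0.0354, was the largest of the members in size. The call was lost, at an adjusted p of up to 0.0841, when *APOE3* replicate 30 or 33 or *APOE4* replicate 35, 39, 40 or 41 was left out.

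Hspa5 (ENSMUSG00000026864.13, chromosome 2, 34771970 to 34777547), the gene of BiP, did not pass. It was at 359, 395 and 433 CPM with *APOE3* and at 395, 428 and 465 CPM with *APOE4*. Of the 8 *APOE4* libraries 7 were above the *APOE3* median, and 3 were above every *APOE3* library. The genotypes differed by a log2 fold change of 0.12 ± 0.0421 (SE) with an adjusted p of 0.0637, and the adjusted p was 0.0342 to 0.138 over the fits with 1 library left out, 3 of which called it, while DESeq2's Wald test gave an adjusted p of 0.0400.

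The lectin chaperones hold glycoproteins while they fold. Canx, the membrane-bound one, had a log2 fold change of 0.10 (adjusted p = 0.142) and its soluble relative Calr of 0.03 (adjusted p = 0.649). The BiP cochaperones with a J domain, which steer BiP to its clients, gave 0.01 for Dnajb11, 0.02 for Dnajc3 and -0.04 for Dnajb9. Hyou1, which exchanges nucleotide on BiP, gave 0.01, and the stress-induced secretory proteins Manf and Creld2 gave 0.07 and 0.04. None of these 8 passed, their smallest adjusted p being the 0.142 of Canx, so the calls among the chaperones were those of Hsp90b1 and Sdf2l1. For Dnajb11 the interval of the log2 fold change ran from -0.05 to 0.08, and for Hyou1 from -0.05 to 0.08 as well (95%, normal approximation to the fit).

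All 6 genes of disulfide formation had a positive log2 fold change, with a median of 0.15, and 4 passed the threshold. Pdia3 (ENSMUSG00000027248.13, chromosome 2, 121413775 to 121438687) encodes ERp57, the isomerase that acts on glycoproteins held by the lectin chaperones. It was at 337, 357 and 383 CPM with *APOE3* and at 377, 399 and 430 CPM with *APOE4*. The 2 *APOE4* libraries inside the *APOE3* range were males 36 and 38, and only *APOE3* replicate 31 reached above the lowest *APOE4* library. This made a log2 fold change of 0.17 ± 0.0356 (SE) with an adjusted p of 0.00824, and all 16 fits with 1 library left out called it.

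P4hb (ENSMUSG00000025130.11, chromosome 11, 120560298 to 120573253), the gene of protein disulfide isomerase itself, was at 534, 585 and 610 CPM with *APOE3* and at 583, 631 and 725 CPM with *APOE4*. Male replicate 35 and female replicate 41 of *APOE4* were the highest of all, and 5 of 8 *APOE4* libraries were above the *APOE3* maximum. Its log2 fold change was 0.15 ± 0.0452 (SE) with an adjusted p of 0.0331. Leaving out *APOE3* replicate 26, 28, 30 or 33 or *APOE4* replicate 35, 40 or 41 ended the call, at an adjusted p of up to 0.0784.

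Pdia4 and Pdia6 encode the isomerases ERp72 and P5. Pdia4 (ENSMUSG00000025823.9, chromosome 6, 47796141 to 47813430) was at 109, 119 and 126 CPM with *APOE3* and at 115, 131 and 149 CPM with *APOE4*, a log2 fold change of 0.15 ± 0.0471 (SE) with an adjusted p of 0.0410. Pdia6 (ENSMUSG00000020571.12, chromosome 12, 17266545 to 17284770) was at 241, 256 and 274 CPM with *APOE3* and at 250, 280 and 320 CPM with *APOE4*, a log2 fold change of 0.14 ± 0.0445 (SE) with an adjusted p of 0.0451. Both overlapped between genotypes, with 5 *APOE4* libraries above the *APOE3* maximum, and both lay close to the threshold. The call of Pdia4 was lost in 9 of 16 fits, those without *APOE3* replicate 26, 28, 30 or 33 or *APOE4* replicate 35, 37, 39, 41 or 43 (adjusted p up to 0.0938), and also with no filter on low counts (0.0567), with GC content and length corrected (0.0593), in limma's voom (0.0548) and in the model that holds the cell cycle score (0.949, log2 fold change 0.024). That of Pdia6 was lost in 10, those without *APOE3* replicate 26, 27, 28, 30 or 33 or *APOE4* replicate 35, 37, 39, 40 or 41 (adjusted p up to 0.101), and with no filter on low counts (0.0677) or the cell cycle score in the model (0.980, log2 fold change -0.0087).

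The ER oxidases, which pass oxidizing equivalents to the isomerases, had values of the same size. Ero1l was at 24.0, 26.6 and 28.3 CPM with *APOE3* and at 26.7, 29.0 and 32.3 CPM with *APOE4*, and all 8 *APOE4* libraries were above the *APOE3* median. Its log2 fold change was 0.15 ± 0.0497 (SE) with an adjusted p of 0.0565, which DESeq2's Wald test put at an adjusted p of 0.0480 and limma's voom with sample quality weights at 0.0465. Ero1lb, at 6.57 to 11.8 CPM over all libraries, had a log2 fold change of 0.22 ± 0.0928 (SE) with an adjusted p of 0.123.

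**Figure D2:**
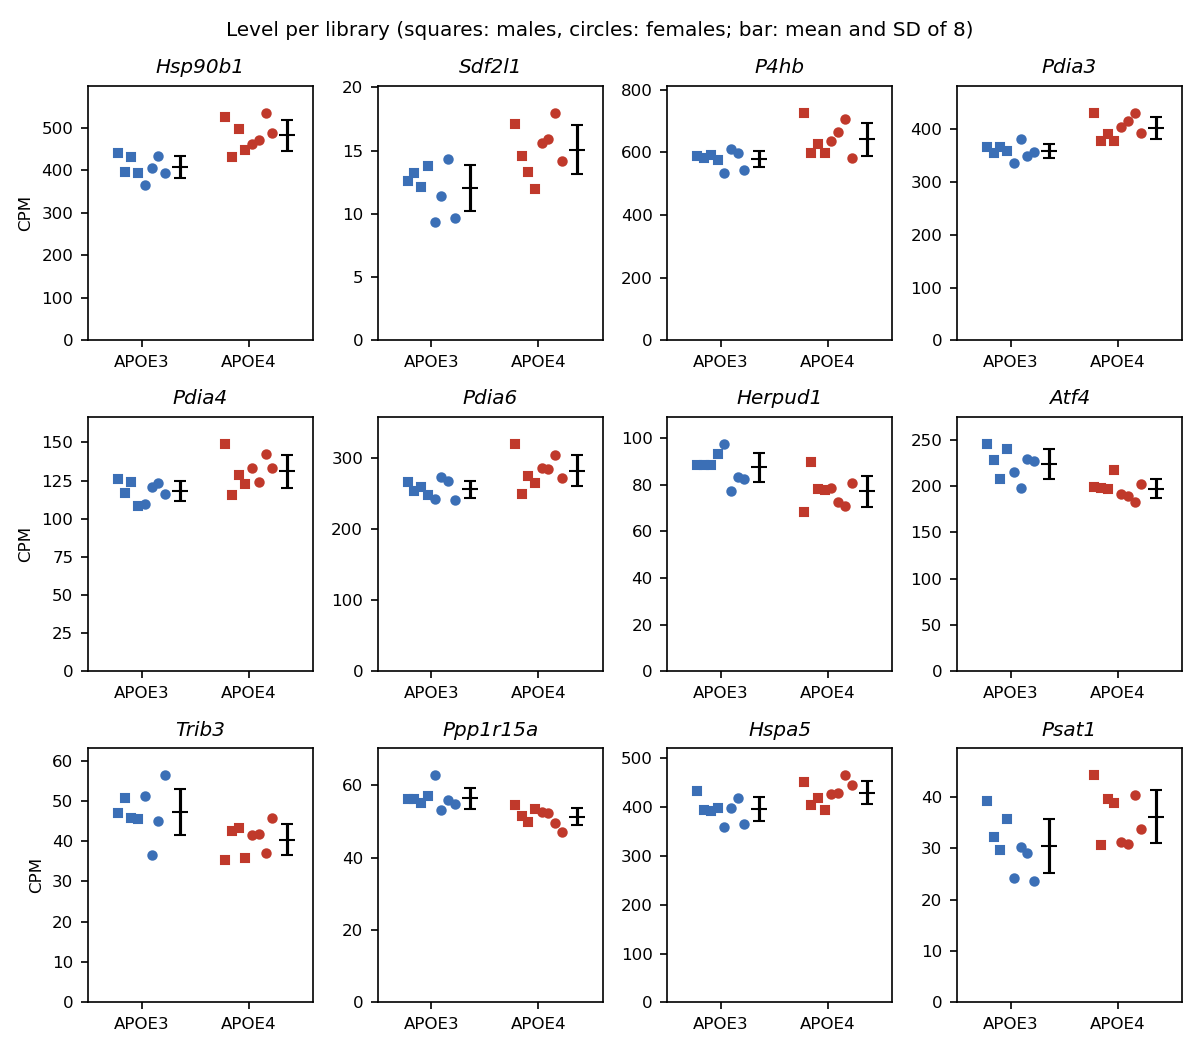
CPM in each library (vertical axis from 0) of the 10 genes past the threshold and of Hspa5 and Psat1, with *APOE3* in blue and *APOE4* in red, squares for males, circles for females, and the mean ± SD of 8 libraries beside them. The genotypes overlap in every panel. Hsp90b1 (366 to 441 against 432 to 535 CPM) and Pdia3 (337 to 383 against 377 to 430 CPM) overlap least among the higher genes.

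ER-associated degradation sends misfolded proteins back to the cytosol for destruction by the proteasome, and of its 6 genes 1 was lower with *APOE4*. Herpud1 (ENSMUSG00000031770.16, chromosome 8, 94386438 to 94395377) encodes a membrane protein that organizes the retrotranslocation complex. It was at 77.4, 88.5 and 97.4 CPM with *APOE3* and at 68.3, 78.0 and 89.7 CPM with *APOE4*. Of the *APOE4* libraries 7 were below the *APOE3* median, and the exception was the male replicate 36. The log2 fold change was -0.18 ± 0.0523 (SE) with an adjusted p of 0.0286. The call ended, at an adjusted p of up to 0.0671, without *APOE3* replicate 26, 28 or 30 or *APOE4* replicate 35, 40 or 41.

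The genes whose products sit with HERPUD1 in that complex did not pass. Syvn1, the ubiquitin ligase HRD1, had a log2 fold change of -0.06 (adjusted p = 0.216), and its partner Sel1l one of 0.06 (adjusted p = 0.137). Edem1, which picks out trimmed glycoproteins, gave 0.09 (adjusted p = 0.122), and the channel-forming derlins gave 0.02 for Derl1 and 0.07 for Derl2. The branch had a median of 0.04, and Herpud1 lay outside the range of -0.06 to 0.09 of its other 5 genes.

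None of the sensors passed the test, and their fold changes lay within 0.02 of 0. Ern1, the gene of IRE1, had a log2 fold change of -0.01 (SE 0.0441), Atf6 of -0.02 (SE 0.0352), Eif2ak3, the gene of PERK, of 0.02 (SE 0.0409) and Xbp1 of -0.02 (SE 0.0433). Their adjusted p was between 0.737 and 0.871, and 0 of the 4 passed even at an unadjusted p under 0.05. The 95% intervals were widest for Xbp1, from -0.11 to 0.06, and Ern1, from -0.10 to 0.07, so a change as large as that of Hsp90b1 lay outside them. Splicing of Xbp1, cleavage of ATF6 and phosphorylation of the kinases cannot be read from counts per gene.

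The integrated stress response branch went the other way from the disulfide genes, with 3 of 9 genes lower, 0 higher, 8 of 9 values below 0 and a median log2 fold change of -0.17. Atf4 (ENSMUSG00000042406.7, chromosome 15, 80255184 to 80257541), its central transcription factor, was at 198, 227 and 245 CPM with *APOE3* and at 182, 197 and 217 CPM with *APOE4*. Each of the 8 *APOE4* libraries lay under the *APOE3* median and 5 lay under every *APOE3* library. For Atf4 the log2 fold change was -0.18 ± 0.0435 (SE) with an adjusted p of 0.0120, and it passed in all 16 fits with 1 library left out. Because ATF4 protein is set largely by translation, its transcript does not give its activity.

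Trib3 (ENSMUSG00000032715.9, chromosome 2, 152337422 to 152344032) encodes a pseudokinase that is induced by ATF4 and holds it back. It was at 36.6, 46.3 and 56.3 CPM with *APOE3* and at 35.3, 41.6 and 45.8 CPM with *APOE4*. Each *APOE4* library lay under the *APOE3* median, but *APOE3* replicate 31 was nearly as low as the lowest of them. The log2 fold change of -0.23 ± 0.0716 (SE), adjusted p = 0.0413, lost its call in 10 of 16 fits, without *APOE3* replicate 25, 26, 28, 30 or 33 or *APOE4* replicate 35, 38, 39, 40 or 41 (adjusted p up to 0.0942), and with GC content and length corrected (adjusted p = 0.0872) or the cell cycle score in the model (adjusted p = 0.907, log2 fold change 0.041).

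Ppp1r15a (ENSMUSG00000040435.12, chromosome 7, 45522916 to 45526268) encodes GADD34, which brings a phosphatase to eIF2 and so ends the response. It was at 53.1, 56.1 and 62.8 CPM with *APOE3* and at 47.0, 51.9 and 54.5 CPM with *APOE4*. Of the *APOE4* libraries 6 were below the lowest *APOE3* library, while *APOE3* replicate 30 stood apart at the top. The log2 fold change was -0.14 ± 0.0385 (SE) with an adjusted p of 0.0270, and leaving out *APOE3* replicate 30 or *APOE4* replicate 41 ended its call (adjusted p up to 0.0611).

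The remaining genes of the branch did not pass. Ddit3, the gene of the transcription factor CHOP, had a log2 fold change of -0.21 (adjusted p = 0.120), Chac1, a glutathione-degrading enzyme, of -0.18 (adjusted p = 0.221), and Sesn2, an inhibitor of mTORC1, of -0.14 (adjusted p = 0.113). Asns, which makes asparagine, gave -0.17 (adjusted p = 0.137), and each *APOE4* library lay under the *APOE3* median for Asns and for Sesn2.

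Psat1 and Phgdh encode enzymes of serine synthesis, and neither passed. Psat1 was the 1 gene of the branch above 0, at 23.7, 30.0 and 39.3 CPM with *APOE3* and 30.7, 36.3 and 44.2 CPM with *APOE4* (log2 fold change 0.25 with SE 0.0995, adjusted p = 0.108). All 8 *APOE4* libraries were above the *APOE3* median of Psat1, but 5 of them lay inside the *APOE3* range. Phgdh, the first enzyme of the same pathway, ranged from 10.5 to 31.1 CPM with *APOE3* and from 9.44 to 24.8 CPM with *APOE4* (log2 fold change -0.11 with SE 0.221, adjusted p = 0.797). Its spread within each genotype was far larger than the difference, and without *APOE3* replicate 25 the log2 fold change was 0.12.

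**Figure D3:**
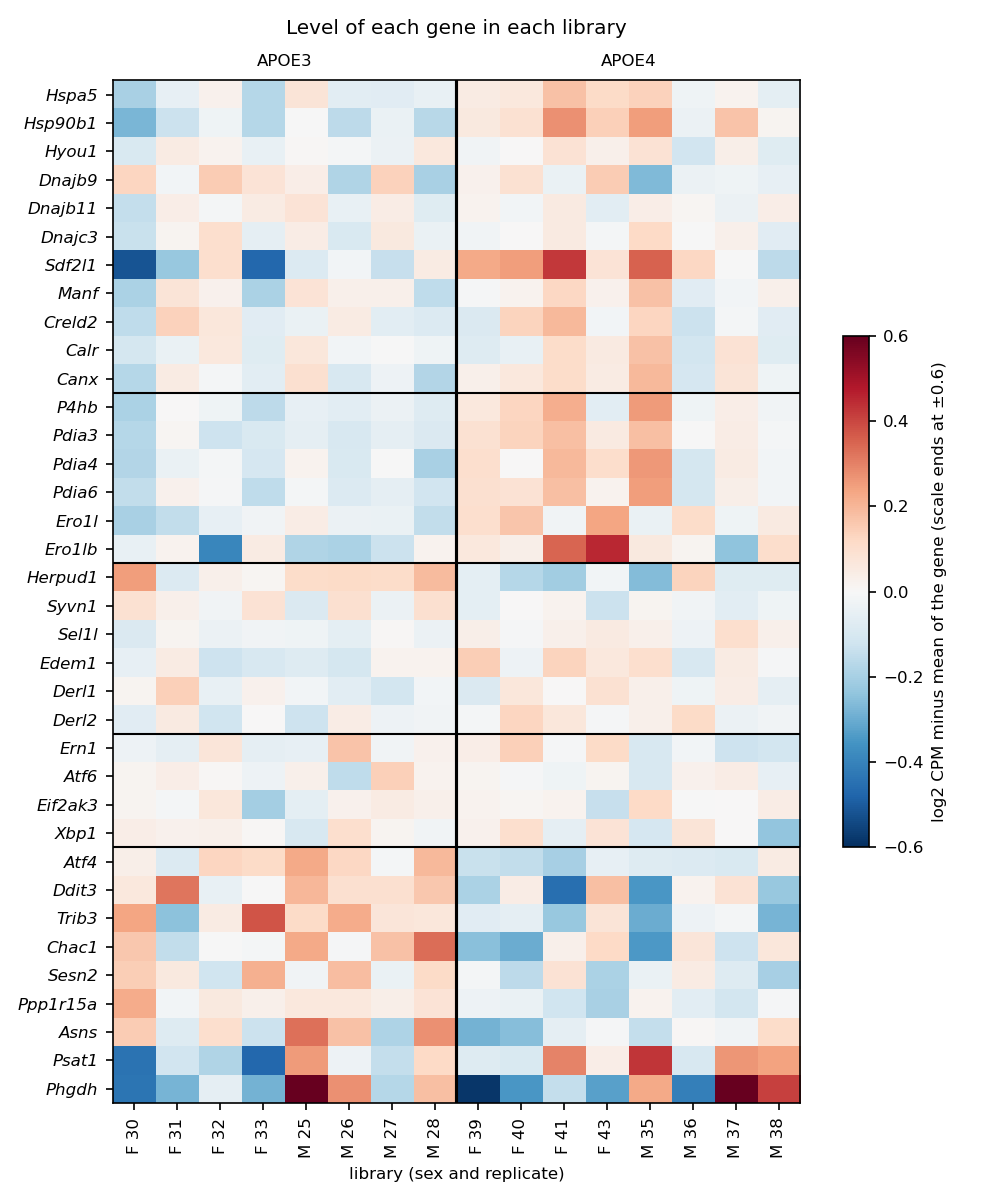
Log2 CPM of each of the 36 genes (rows, by branch) minus the mean of that gene over all libraries, in 8 *APOE3* and 8 *APOE4* libraries (columns, by sex and replicate), red above the mean and blue below it, with the color scale ending at ±0.6. The disulfide rows are mostly blue on the left and red on the right and the Atf4 row the reverse, while *APOE3* replicates 30 and 33 and *APOE4* replicates 35 and 41 hold many of the strongest colors.

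How many members passed depended on single libraries. The 6 higher genes became 2 when *APOE3* replicate 30 or 33 or *APOE4* replicate 35 or 41 was left out, 3 without *APOE3* replicate 26 or 28 or *APOE4* replicate 39 or 40, and 9 without *APOE3* replicate 25. The 4 lower genes became 1 without *APOE3* replicate 30 or *APOE4* replicate 41, and 2 without *APOE3* replicate 26 or 28 or *APOE4* replicate 35 or 40. Over the same fits the number of all genes called ran from 846 without *APOE4* replicate 41 to 2127 without *APOE3* replicate 31. Hsp90b1, Pdia3 and Atf4 were the 3 members called in every one.

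The cell cycle score moved with the same libraries. It was lowest in *APOE3* replicates 33 and 30, at 5.06 and 5.08, and highest in *APOE4* replicates 35 and 41, at 6.59 and 6.42. With the score as a covariate, 0 of the 12481 genes and 0 members passed (907 genes and 4 members at an unadjusted p under 0.05), and members above 0 went from 22 to 15. All 10 genes called without it moved toward 0 or past it. The log2 fold change became 0.12 for Hsp90b1, 0.091 for Sdf2l1, 0.074 for Pdia3 and 0.024 for Pdia4, and -0.034 for Herpud1, -0.12 for Atf4 and -0.11 for Ppp1r15a, while P4hb, Pdia6 and Trib3 took the opposite sign, at -0.0031, -0.0087 and 0.041. The adjusted p of these 10 was then between 0.657 (Hsp90b1) and 0.994 (P4hb). In 6 of the 8 *APOE3* libraries the score was below that of every *APOE4* library. Why the calls were lost was not tested. Because the score was so tied to genotype, this fit cannot tell the effects of score and genotype apart. The part of the cell cycle in the member differences was not tested beyond it.

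Pairs of genes were compared across the 8 libraries within each genotype, 5 chosen for known links in regulation or pathway and 1 across branches, 12 values in all, with exact permutation tests adjusted over the 12. Hspa5 and Hsp90b1 had a Pearson r of 0.85 with *APOE3* (adjusted p = 0.0250, Spearman's rho 0.79, adjusted p = 0.0559) and of 0.87 with *APOE4* (adjusted p = 0.0250, rho 0.83, adjusted p = 0.0461). Without the 2 libraries farthest from the median of Hspa5, r was 0.62 and 0.78. Hspa5 and Pdia4 had r = 0.85 with *APOE4* (adjusted p = 0.0250, rho 0.88, adjusted p = 0.0429, r = 0.87 without 2 libraries) and r = 0.65 with *APOE3* (adjusted p = 0.134, rho 0.48, adjusted p = 0.265, r = 0.29 without 2). The *APOE3* value of this second pair therefore rested on replicates 25 and 30.

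Of the integrated stress response pairs, Psat1 and Phgdh had r = 0.85 with *APOE3* (adjusted p = 0.0202, rho 0.86, adjusted p = 0.0429, r = 0.82 without 2 libraries) and r = 0.75 with *APOE4* (adjusted p = 0.0789, rho 0.74, adjusted p = 0.0786, r = 0.76 without 2). Atf4 and Asns had r = 0.75 (adjusted p = 0.0789, rho 0.79, adjusted p = 0.0559, r = 0.56 without 2) and r = 0.63 (adjusted p = 0.134, rho 0.67, adjusted p = 0.125, r = 0.84 without 2). Both pairs had a positive r in each genotype, and 1 of these 4 values passed the threshold. The pair across branches, Hspa5 and Asns, had r = 0.43 with *APOE3* (adjusted p = 0.351, rho 0.55, adjusted p = 0.228, r = 0.45 without 2) and r = -0.36 with *APOE4* (adjusted p = 0.406, rho -0.52, adjusted p = 0.236, r = -0.22 without 2). Xbp1 and its target Dnajb9 gave r = -0.16 with *APOE3* (adjusted p = 0.678, rho 0.19, adjusted p = 0.665) and 0.60 with *APOE4* (adjusted p = 0.164, rho 0.88, adjusted p = 0.0429), and without 2 libraries r was 0.78 and 0.66, so the *APOE3* value turned on replicates 25 and 26.

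**Figure D4:**
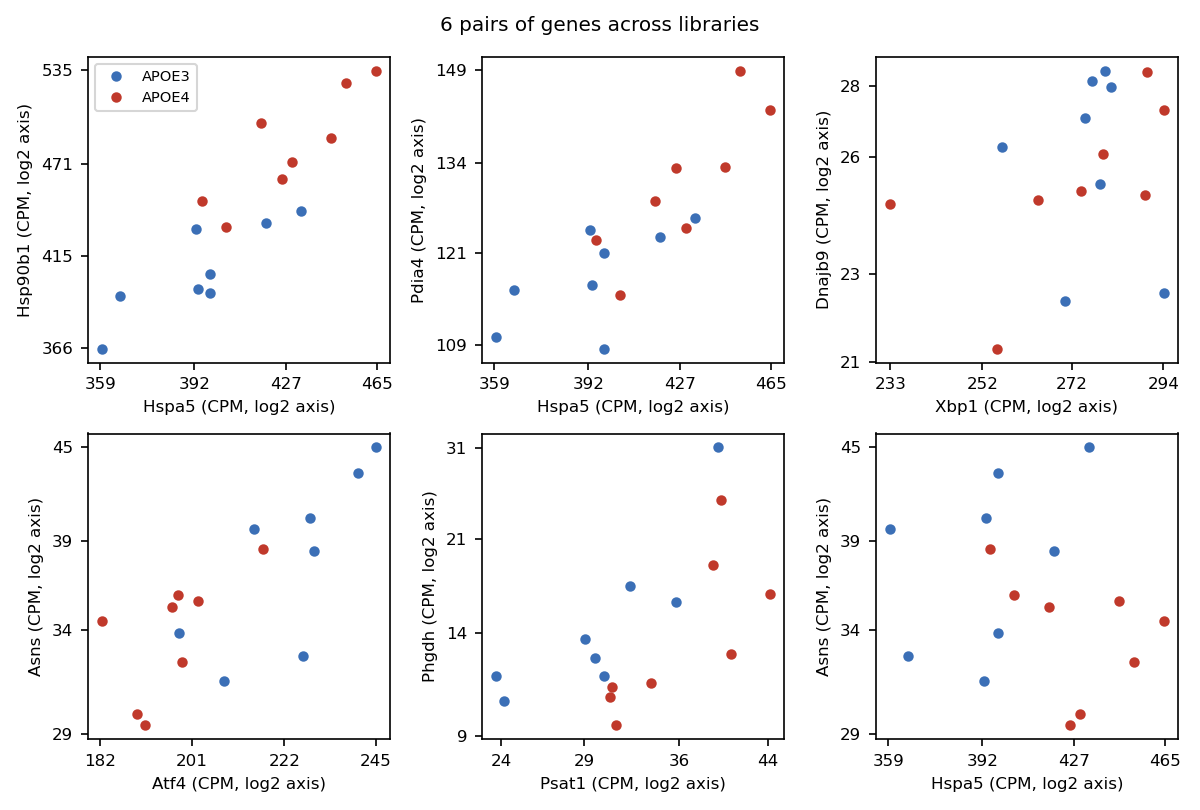
CPM of 6 pairs of genes on log2 axes, 1 point per library, with 8 *APOE3* libraries in blue and 8 *APOE4* libraries in red. Hspa5 rises with Hsp90b1 in both genotypes (r = 0.85 and 0.87), whereas for Hspa5 and Asns the points show no common slope (r = 0.43 and -0.36).

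Within each sex the comparison was of 4 against 4 libraries, and in 1 edgeR fit of 4 groups 0 members passed in males or in females, beside 0% of all genes in either. At an unadjusted p under 0.05 there were 6 members in males and 14 in females. The share of all genes at that level within each sex was not counted, so these numbers do not set the members apart. The median log2 fold change of the members was 0.02 in males and 0.04 in females, beside -0.0009 and -0.0007 for all genes. All 10 genes called in the whole set had the same sign in both sexes. Those calls were made on the same libraries, 4 of each sex per genotype, so this agreement is not independent support. Hsp90b1 had a log2 fold change of 0.19 in males and 0.29 in females, Pdia3 of 0.13 and 0.21, and Atf4 of -0.19 and -0.18. The smallest adjusted p was 0.217 in males, for Atf4, and 0.0617 in females, for Hsp90b1 and Pdia3.

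No member had a genotype effect that differed between sexes after adjustment, with 0 of 12481 genes past the threshold and 2.76% at an unadjusted p under 0.05. The 1 member at an unadjusted p under 0.05 was Ern1, with a log2 fold change of -0.12 in males and 0.09 in females (difference 0.21, SE 0.0738, adjusted p = 1.00). *APOE3* males were at 225 ± 15.8 CPM and *APOE4* males at 207 ± 6.83 CPM (SD, n = 4), and *APOE3* females at 217 ± 9.42 CPM and *APOE4* females at 231 ± 10.9 CPM (SD, n = 4). Sdf2l1 had the largest difference in size, 0.13 in males and 0.51 in females (difference 0.38, SE 0.184, adjusted p = 1.00). The female minus male difference was above 0 for 29 of the 36 members, with a median of 0.05, beside -0.0009 for all genes. The share of all genes above 0 was not counted, so the 29 do not set the members apart.

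**Figure D5:**
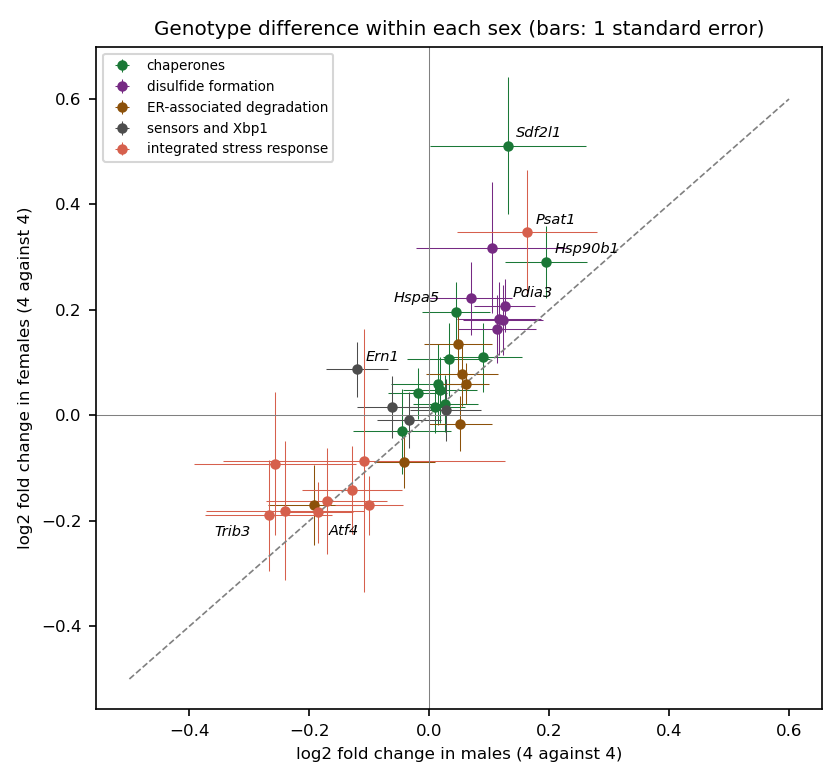
Log2 fold change of each of the 36 genes in females (vertical axis) against that in males (horizontal axis), 4 *APOE4* against 4 *APOE3* libraries in each sex, with bars of 1 standard error, colors for the branches and a dashed line where both are equal. Sdf2l1 (0.13 in males and 0.51 in females) lies farthest above the line, Ern1 (-0.12 and 0.09) has opposite signs, and 0 members passed a test of the difference.

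Between the sexes, with both genotypes averaged, 0 members passed the threshold, beside 0.0721% of all genes, and 3 did so at an unadjusted p under 0.05, beside 4.26% of all. Phgdh was at 19.2 ± 8.15 CPM in *APOE3* males, 11.9 ± 1.32 CPM in *APOE3* females, 17.7 ± 5.84 CPM in *APOE4* males and 11.2 ± 1.39 CPM in *APOE4* females (SD, n = 4). The spread was wider among males in both genotypes, and the sexes overlapped. The log2 fold change of females against males was -0.68 (SE 0.171, adjusted p = 0.757), and without a filter on low counts it was -0.68 with an adjusted p of 0.0279. The other members at an unadjusted p under 0.05 were Psat1, with a log2 fold change of -0.26, and Dnajb9, with 0.14 (adjusted p = 1.00 for both).

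Other genes of the same compartments were taken by list. The count called in each list stands beside 12.8% of all genes tested, 6.71% higher and 6.09% lower. No test of any list was made, so the genes are described singly. Of 27 other ER folding enzymes and chaperones tested, 5 were higher and 0 lower with *APOE4*, with a median log2 fold change of 0.05. The prolyl isomerase Fkbp11 went from 1.76 ± 0.568 to 2.77 ± 0.700 CPM (SD, n = 8, log2 fold change 0.65, adjusted p = 0.0425), and the disulfide reductase Dnajc10 from 152 ± 8.52 to 172 ± 14.7 CPM (log2 fold change 0.18, adjusted p = 0.0189). The other genes that passed, named after their values were seen, were the calcium-binding Calu (0.18, adjusted p = 0.0184), the sulfhydryl oxidase Qsox1 (0.18, adjusted p = 0.0247) and the thioredoxin-like Tmx4 (0.16, adjusted p = 0.0485). Dnajc10 was called in all 16 fits with 1 library left out. Fkbp11 lost its call without *APOE3* replicate 25, 26, 27, 30 or 33 or *APOE4* replicate 35, 37, 38, 40 or 41 (adjusted p up to 0.0848). Calu held in all 16, Qsox1 failed when *APOE3* replicate 30 or *APOE4* replicate 40 or 41 was left out (adjusted p up to 0.0589), and Tmx4 stayed called in 3, those without *APOE3* replicate 27 or 32 or *APOE4* replicate 38 (adjusted p up to 0.0955 in the rest).

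Of 31 translocon, signal peptidase and oligosaccharyltransferase genes, which bring chains into the ER and attach their glycans, 3 passed as higher and 1 as lower, and the median was 0.06. Srp72, of the signal recognition particle, had a log2 fold change of 0.16 (adjusted p = 0.00817). The 2 alternative catalytic subunits of oligosaccharyltransferase went opposite ways, with Stt3a at 0.15 (adjusted p = 0.0177) and Stt3b at -0.19 (adjusted p = 0.0215). Stt3b was at 319 ± 35.4 CPM with *APOE3* and 279 ± 5.09 CPM with *APOE4* (SD, n = 8), so its spread was much the wider with *APOE3*. Its call ended without *APOE3* replicate 30 (adjusted p = 0.0514), and that of Stt3a with GC content and length corrected (adjusted p = 0.0749). Ssr3, of the translocon-associated complex and named after its value was seen, was at 0.13 (adjusted p = 0.0260), a call lost without *APOE3* replicate 30 or 33 or *APOE4* replicate 39 or 41 (adjusted p up to 0.0618).

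Among 29 other glycan trimming and degradation genes 1 passed as higher and 3 as lower, and the median was 0.01. Uggt1, the glucosyltransferase that tags unfolded glycoproteins for another round with the lectin chaperones, had a log2 fold change of 0.13 (adjusted p = 0.0367). Mogs, the glucosidase that trims the first glucose, was at -0.22 (adjusted p = 0.00886) and Selenok, a selenoprotein of the ER membrane, at -0.17 (adjusted p = 0.0387). March6, a ubiquitin ligase of the ER membrane named after its value was seen, was at -0.15 (adjusted p = 0.0135). Mogs and March6 kept their call in all 16 fits with 1 library left out. Uggt1 lost it without *APOE3* replicate 26, 28, 30 or 33 or *APOE4* replicate 35, 39, 40 or 41 (adjusted p up to 0.0864), and Selenok without *APOE3* replicate 25, 26, 27, 30, 32 or 33 or *APOE4* replicate 35, 38, 40 or 41 (adjusted p up to 0.0856).

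Other integrated stress response genes numbered 29, of which 0 passed as higher and 4 as lower, beside 6.71% and 6.09% of all genes tested. The median of the list was 0.0006. Slc7a5, the large neutral amino acid transporter LAT1 of the blood-brain barrier, was at 847 ± 179 CPM with *APOE3* and 608 ± 123 CPM with *APOE4* (SD, n = 8), and fell by 0.48 on the log2 scale (SE 0.122, adjusted p = 0.0167). Slc3a2, its heavy chain and named after its value was seen, was at 452 ± 46.6 and 366 ± 43.6 CPM, and fell by 0.30 on the log2 scale (SE 0.0702, adjusted p = 0.0111). Ddit4, an inhibitor of mTORC1, was at -0.35 (adjusted p = 0.0148), and Bbc3, the gene of the apoptosis promoter PUMA and also named afterwards, at -0.29 (adjusted p = 0.0179). All 4 were called in each of the 16 fits with 1 library left out, and each is also known to be driven by signals outside this response. Once the cell cycle score was in the model none of the 4 passed, and the log2 fold change was -0.039 for Slc7a5, -0.037 for Slc3a2, 0.00147 for Ddit4 and -0.19 for Bbc3.

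Of 21 other sensors, eIF2 kinases and eIF2B subunits, 2 were higher and 0 lower. Eif2ak2, the gene of PKR, the eIF2 kinase that senses double-stranded RNA, had a log2 fold change of 0.26 (adjusted p = 0.0122), and Bak1, which binds IRE1 besides its part in apoptosis, of 0.20 (adjusted p = 0.0371). Of 20 cytosolic and mitochondrial heat shock genes, 0 were higher and 2 lower. Hsf1, their master regulator, was at -0.13 (adjusted p = 0.0232) and Hspa1b at -0.45 (adjusted p = 0.0267), although reads of Hspa1b can be shared with its near-identical neighbor Hspa1a, so its value is uncertain. Leaving out *APOE3* replicate 30 or *APOE4* replicate 41 ended the calls of Hsf1, Hspa1b and Bak1 (adjusted p up to 0.0559, 0.0630 and 0.0861). The calls of Hspa1b and Bak1 were also lost without *APOE3* replicate 26, 28 or 33 or *APOE4* replicate 35 or 40, and that of Bak1 without *APOE3* replicate 25 or *APOE4* replicate 37. Once the cell cycle score was in the model none of the genes named from these wider lists passed. Their log2 fold changes were then 0.38 for Fkbp11, 0.023 for Dnajc10, 0.050 for Calu, 0.020 for Qsox1 and 0.22 for Tmx4. They were 0.082 for Srp72, 0.074 for Stt3a, 0.042 for Ssr3 and -0.068 for Stt3b, and -0.00141 for Uggt1, -0.22 for Mogs, -0.12 for Selenok and -0.052 for March6. For Eif2ak2, Bak1, Hsf1 and Hspa1b they were 0.096, -0.024, -0.12 and -0.050.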

How the data were processed

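The deposited table holds raw counts per gene for 16 libraries, which the authors made from paired reads of 50 nt after polyadenylated RNA selection, strand selection and 17 cycles of PCR. The submitters' processing notes name STAR and featureCounts with mm10 and hg38. The strand setting of the counting is not given in the sources used here, so whether overlapping antisense genes were told apart is not known. Counts have no molecular identifiers, so copies made in PCR were not told apart from separate molecules. The SE and p of the fits take in the spread between animals as well as counting error. Every column was mapped by its label.

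Counts were fitted with edgeR 4.0.16 (R 4.3.3, filterByExpr by genotype, TMM, genotype as the single term, quasi-likelihood F test, Benjamini-Hochberg over 12481 genes, threshold 0.05). SE is the log2 fold change divided by the square root of F. Sex was read from 1 fit of 4 groups. Identifiers were matched to GENCODE M21 on GRCm38 (38872 of 39056), and RPKM used exonic length. Log2 CPM for correlations had a prior count of 2. DESeq2 1.42.0, limma 3.58.1 and sva 3.50.0 gave alternatives, and Python 3.11.15 with matplotlib 3.10.9 the figures. On simulated counts for this comparison (12400 genes), 53 of 200 genes changed by 0.25 on the log2 scale were recovered, and 153 of 200 changed by 0.5. Replicates are separate animals. The members and gene lists were chosen with earlier results of these data known. All members are named, with up to 2 genes of each wider list and direction by size of change, and genes named otherwise are marked. The cell cycle covariate was likewise chosen with an earlier result known.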

Additional observations from a re-analysis of the deposited data

Results flagged for a closer look

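In 72 groups of 8 libraries (36 genes in 2 genotypes), a single library lay apart from the rest by Dixon's criterion in 2, and chance alone gives about 1 in 20 such groups. Ppp1r15a was at 62.8 CPM in *APOE3* replicate 30, with the nearest library at 56.9 CPM, and its call was lost without that library. Phgdh was at 31.1 CPM in *APOE3* replicate 25, with the nearest at 17.2 CPM, and without it the log2 fold change went from -0.11 to 0.12, neither past the threshold.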

How the results depend on the processing

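No paired analysis was possible because the groups share no replicate number. The count of 6 higher and 4 lower members was the same with DESeq2's size factors, sex or a surrogate variable added to the model, a stricter filter (10 counts or more in each library), edgeR's likelihood-ratio test and limma's voom, which shared 9 of the 10 genes. DESeq2's Wald test gave 8 and 4, no filter on low counts 4 and 4, and GC content and length correction 5 and 3. With 1 library left out there were 2 to 9 higher and 1 to 4 lower members and 846 to 2127 genes in all, beside 1597. The cell cycle score as a covariate left 0 higher, 0 lower and 0 genes in all. It turned the log2 fold change of Hyou1 to -0.063, Dnajb9 to 0.047, Dnajb11 to -0.042, Dnajc3 to -0.065, Manf to -0.090, Creld2 to -0.11, Calr to -0.056, Canx to -0.015, P4hb to -0.0031, Pdia6 to -0.0087, Ern1 to 0.012, Eif2ak3 to -0.070, Xbp1 to 0.028, Trib3 to 0.041, Psat1 to -0.0098, Uggt1 to -0.00141, Ddit4 to 0.00147 and Bak1 to -0.024, and GC content and length correction turned Dnajc3 to -0.0057 and Ern1 to 0.0019. For these reversals the cause was not tested. With 1 library left out, values that changed sign ranged from -0.27 to 0.12 for Phgdh, from -0.036 to 0.010 for Ern1, from -0.0010 to 0.028 for Hyou1, from -0.0057 to 0.025 for Dnajb11, from -0.0072 to 0.039 for Eif2ak3 and from -0.038 to 0.0081 for Xbp1. Members differing between sexes were 1 (Phgdh) without a filter on low counts and 0 to 0 with 1 library left out, as was the interaction. A prior count of 0.5 likewise put 4 of the 12 correlations past the threshold. Most member differences lie below the size at which the simulated test recovered most genes. Only 200 genes were changed there, whereas 1597 passed in the data. They were also drawn from all genes tested and not from the members, so that recovery need not hold for the members. A member that did not pass may still differ.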
